A study of Mus musculus with 4 samples.

Results

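The genes described here encode the subunits of the oxidative phosphorylation machinery, complexes I to V of the mitochondrial inner membrane. Members were chosen by symbol and a minimum of UMIs. No measured difference entered that rule, but the members were chosen with earlier results of these data known. The members were the structural genes whose symbols begin with Ndufa, Ndufb, Ndufc, Ndufs, Ndufv, Uqcr, Cox4 to Cox8 or Atp5, the genes Sdha to Sdhd, and the protein-coding genes of mitochondrial DNA. Cox4i2, whose symbol also begins with Cox4, was left out by name before the matches were counted. Of 31253 genes in the count matrices, 108 symbols matched and 104 members held at least 20 UMIs (unique molecular identifiers, 1 per captured transcript) over all libraries. The 4 symbols under that minimum were Cox7b2, Cox8c, Cox5b-ps and a second identifier of Atp5o. The nuclear set had 91 members, namely 37 complex I subunits, 8 complex I assembly factors that share the symbol stem, 4 genes of complex II, 8 of complex III, 17 of complex IV and 17 of complex V. The mitochondrial set had 13 members, with 7 genes of complex I, 1 of complex III, 3 of complex IV and 2 of complex V.

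Single-cell RNA-seq had been performed on RFP+ cells sorted from the left ventricles of R26-stop-tdTomato; Cdh5-CreER; SR-B1-flox mice, in which tamoxifen given at 7 weeks of age turns on the reporter and excises the floxed Scarb1 (SR-B1) allele in cells that use the Cdh5 promoter, chiefly endothelial cells (ECs). The 2 NC libraries (NC1 and NC2) came from mice on chow with 10% of energy from fat, and the 2 HFpEF libraries (labelled HF1 and HF2, here HFpEF1 and HFpEF2) from mice given a diet with 60% of energy from fat plus the nitric oxide synthase inhibitor L-NAME at 0.5 mg/ml in drinking water, each for 20 weeks. The study names 4 single-cell groups, with 1 or 2 floxed SR-B1 alleles on each diet, but the library labels give no genotype, so genotype was not compared. If each group is 1 library, the 2 libraries of a diet differ in genotype and are not replicates of 1 condition, and the spread within a diet holds that difference too. Scarb1 was at 114 and 49.9 UMIs per 1000000 in capillary ECs of NC1 and NC2, and at 114 and 52.8 in HFpEF1 and HFpEF2. The libraries of a diet differed in it more than the diets did, but tags at the 3' end lie outside the floxed exon 2, so the deletion itself is not read from them and no genotype was assigned. The number of mice pooled in a library is not given.

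Complexes I to IV pass electrons from NADH and succinate to oxygen. Complexes I, III and IV also pump protons across the inner membrane, and complex V, the ATP synthase, uses the proton gradient to make ATP. Complexes I, III, IV and V are built from subunits of both genomes, so that nuclear transcripts made one gene at a time must be matched with transcripts cut from the long polycistronic RNAs of mitochondrial DNA. Complex II is encoded in the nucleus only. Cardiomyocytes are among the cells richest in this machinery, whereas ECs are known to draw much of their ATP from glycolysis.

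After removal of cells with 200 genes or fewer or with 20% or more mitochondrial UMIs, and of cells with over 1% hemoglobin UMIs, 39829 of 41843 cells were kept, and 37449 passed the marker gate for ECs. All 10 endothelial markers were detected in these cells in each library, at 8397 to 9517 UMIs per 1000000 summed over the list. The EC totals were 9843241 to 43129183 UMIs, and the median per cell was 1601 to 4063.5, lower in both HFpEF libraries than in both NC libraries. HFpEF1 stood apart from the rest, with the highest share of mitochondrial UMIs and the highest level of cardiomyocyte markers. All 14 cardiomyocyte markers were detected among the ECs of each library, at a summed level of 151.6 and 101.1 UMIs per 1000000 in NC1 and NC2, and 448.4 and 152.3 in HFpEF1 and HFpEF2. The 11 mural markers were also all detected, at 138.2 to 231.1. Libraries shared 10 to 42 cell barcodes in pairs. Because HFpEF1 can decide a mean of 2 libraries, results that rest on it are given with and without it.

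2 promoters are shown because their genes, Ndufa8 and Ndufa4, are described below by cell type. Ndufa8 differed from capillary cells in artery, vein and mural cells, and Ndufa4 had the largest fall of the members called in mural cells. Each sequence covers the 250 bases before the start annotated in RefSeq for GRCm38.p6, on the strand of the gene. The gene positions given elsewhere come from another annotation, in which Ndufa8 starts at base 36049406 and Ndufa4 at base 11907497. By that annotation both windows reach into the gene, and the marked match of Ndufa8 lies inside it. Capitals mark a match to the motif of NRF1 (nuclear respiratory factor 1, a known regulator of respiratory chain genes), searched as GCGCA, any base and GCGC on both strands.
Ndufa8: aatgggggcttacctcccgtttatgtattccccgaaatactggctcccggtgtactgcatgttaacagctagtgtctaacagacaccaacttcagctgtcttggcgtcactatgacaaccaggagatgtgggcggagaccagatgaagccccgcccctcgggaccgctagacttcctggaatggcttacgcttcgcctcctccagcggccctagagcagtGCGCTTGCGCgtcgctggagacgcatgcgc
Ndufa4: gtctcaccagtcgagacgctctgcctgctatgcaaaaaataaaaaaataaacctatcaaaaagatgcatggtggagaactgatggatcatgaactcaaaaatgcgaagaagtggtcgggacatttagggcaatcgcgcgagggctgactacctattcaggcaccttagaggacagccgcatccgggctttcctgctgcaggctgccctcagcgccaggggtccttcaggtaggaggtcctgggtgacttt
The Ndufa8 window lies at chr2:36049339-36049588 on the minus strand and holds 1 match, and the Ndufa4 window lies at chr6:11907451-11907700 on the minus strand and holds none of these letters. Of 80 promoters of the 75 members found in the table, 15 (18.8%) held the NRF1 motif, against 3.74% of all 32851 promoters of the same length. The motif of GABPA (also called NRF2, an ETS factor), searched as CCGGAAG on both strands, was in 17.5% of the members' promoters and 6.91% of all. The letters ACGTG, the core of hypoxia response elements, were in 16 of the 80 promoters and in 16.6% of all. These are matches of letters, and binding was not measured.

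The first comparison asked whether transcripts of the machinery differed between HFpEF and NC in ECs. The nuclear set held a smaller share of UMIs in both HFpEF libraries than in either NC library, while the mitochondrial set did not separate the diets. In NC1 and NC2 the nuclear set took 1.66% and 1.77% of all EC UMIs, and in HFpEF1 and HFpEF2 it took 1.56% and 1.54%. The diets did not overlap, with means of 1.71% ± 0.0842 (SD, n = 2) in NC and 1.55% ± 0.0140 (SD, n = 2) in HFpEF. The mitochondrial set took 6.94% and 6.29% in NC, and 8.49% and 6.30% in HFpEF. Only HFpEF1 was high, and the other HFpEF library lay between the NC libraries. The mean difference of 0.777 percentage points became -0.317 without HFpEF1. With 2 libraries against 2, no exact permutation test of these shares can fall below 0.05, so none was run.

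**Figure D1:**
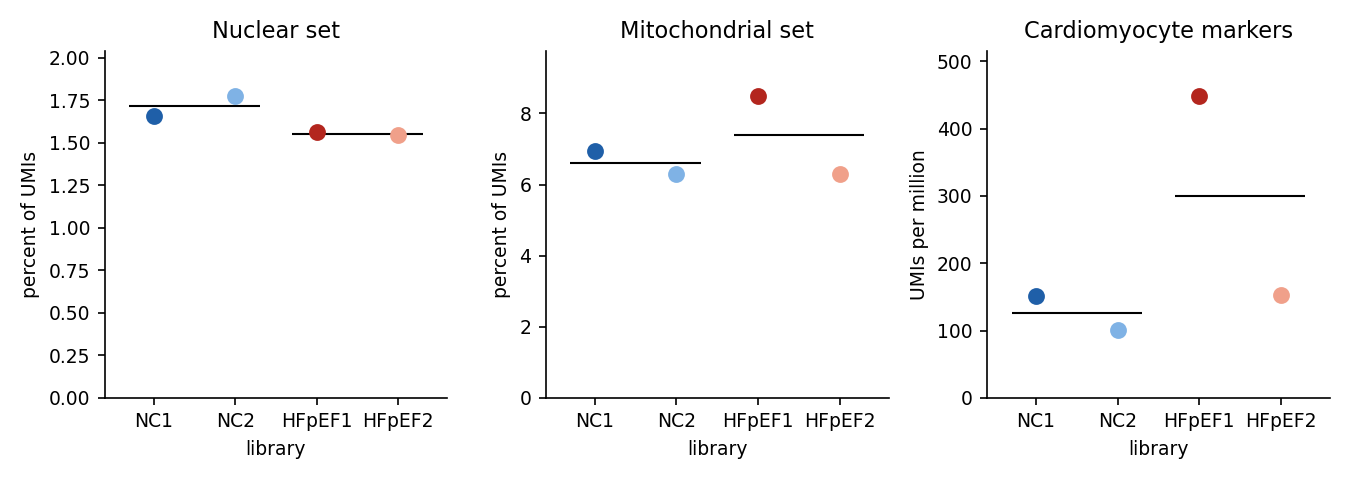
Share of EC UMIs in the nuclear and the mitochondrial set (percent, left and middle) and the summed level of 14 cardiomyocyte markers (UMIs per 1000000, right) in each library, with 1 point per library and a line at each diet's mean. The nuclear share is lower in both HFpEF libraries, while HFpEF1, at 8.49%, has both the highest mitochondrial share and, at 448.4, the highest marker level.

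No member was called in ECs. After Benjamini-Hochberg adjustment over 13055 genes, 0 of 104 members passed edgeR's quasi-likelihood test at an adjusted p under 0.05, and 0.0230% of all genes tested were called. At an unadjusted p under 0.05 there were 11 nuclear members (12.1%) and 3 mitochondrial ones, against 17.8% of all genes. DESeq2 called 0 nuclear and 3 mitochondrial members, and 2.11% of all genes. The log2 fold change of the nuclear set (HFpEF over NC) had a median of -0.13, with 75 of 91 members below 0 and 16 above. The median over all genes tested was -0.01, with 6631 of 13055 below 0. Both HFpEF libraries lay below both NC libraries for 50 nuclear members, against 25.9% of all genes tested, and above them for 5, against 25.0%. The remaining 36 overlapped.

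The lower values were spread over the complexes, least often in complex IV. Among the 37 nuclear subunits of complex I 33 had lower levels in HFpEF, with a median of -0.17. Both HFpEF libraries lay below both NC libraries for 22 of them and above for 1. Of all genes tested 25.9% lay below and 25.0% above in this way. Complex III had 7 of 8 lower with a median of -0.18, 6 of them without overlap. Complex V had 15 of 17 lower with -0.09, 10 without overlap, and complex II 4 of 4 with -0.09, 2 without overlap. Complex IV, the cytochrome c oxidase, had 10 of 17 lower and a median of -0.06, with 6 below and 1 above without overlap. The 8 complex I assembly factors had 6 lower, with a median of -0.14, and 4 below and 2 above without overlap.

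Ndufc2, an accessory subunit in the membrane arm of complex I, showed the largest negative difference among nuclear members without overlap. Among those that followed were Ndufa8, Ndufa7 and Ndufv1, also of complex I, and none of these genes reached the threshold. Ndufc2 stood at 289 and 297 counts per 1000000 (CPM, TMM-normalised UMIs of tested genes) in NC and at 218 and 238 in HFpEF. Both HFpEF values were the lower ones, with a log2 fold change of -0.36 ± 0.10 (SE) and an adjusted p of 0.178. Ndufa8, an accessory subunit on the intermembrane side, had 239 and 295 CPM in NC, and in HFpEF 222 and 198 CPM (log2 fold change -0.35 ± 0.13 SE, adjusted p = 0.25).

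For Ndufa7, another accessory subunit, the NC libraries had 301 and 324 CPM and the HFpEF libraries 265 and 243 CPM (log2 fold change -0.30). Ndufv1, the flavin-bearing core subunit that takes electrons from NADH, had 71.1 and 83.6 CPM in NC against 63.0 and 63.1 CPM in HFpEF (log2 fold change -0.29). The adjusted p was 0.22 for Ndufa7 and 0.252 for Ndufv1.

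The 5 nuclear members with HFpEF above NC and no overlap were Cox7a1, described below, the assembly factor Ndufaf5, under 10 CPM in all libraries, and 3 genes with small differences. Ndufs1, the large iron-sulfur subunit of complex I, had 23.8 and 27.9 CPM (NC) and 30.7 and 28.2 CPM (HFpEF) (log2 fold change 0.18). The assembly factor Ndufaf4 had 17.9 and 16.3 CPM in NC, and in HFpEF 18.8 and 19.7 CPM (log2 fold change 0.17). Uqcrb, a small subunit of complex III, had 302 and 340 CPM in NC against 350 and 353 CPM in HFpEF (log2 fold change 0.13 ± 0.10 SE, adjusted p = 0.532). In these 3 genes the nearest libraries of the 2 diets lay close together.

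Of the most abundant nuclear members of each complex, Ndufc2 and Ndufa7 of complex I and Uqcrb of complex III are given above, and those below lay between -0.22 and -0.05 on the log2 scale. Cox4i1, the ubiquitous isoform of a regulatory complex IV subunit, measured 706 and 734 CPM (NC) and 622 and 617 CPM (HFpEF), without overlap (log2 fold change -0.22, adjusted p = 0.298). Atp5j, coupling factor 6 of the ATP synthase stalk, had 732 and 766 CPM against 687 and 620 CPM, again without overlap (log2 fold change -0.20, adjusted p = 0.368). Atp5b, the catalytic beta subunit, had 440 and 472 CPM in NC, and in HFpEF 436 and 446 CPM, and its diets overlapped (log2 fold change -0.05). Uqcrh, the hinge protein of complex III, had 472 and 522 CPM against 450 and 420 CPM (log2 fold change -0.19). Sdha and Sdhb, the catalytic subunits of succinate dehydrogenase, had log2 fold changes of -0.16 and -0.20, with HFpEF below NC in both genes. Cox8a, the ubiquitous form of complex IV subunit VIII, overlapped at 488 and 555 CPM in NC against 498 and 484 CPM in HFpEF (log2 fold change -0.09).

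**Figure D2:**
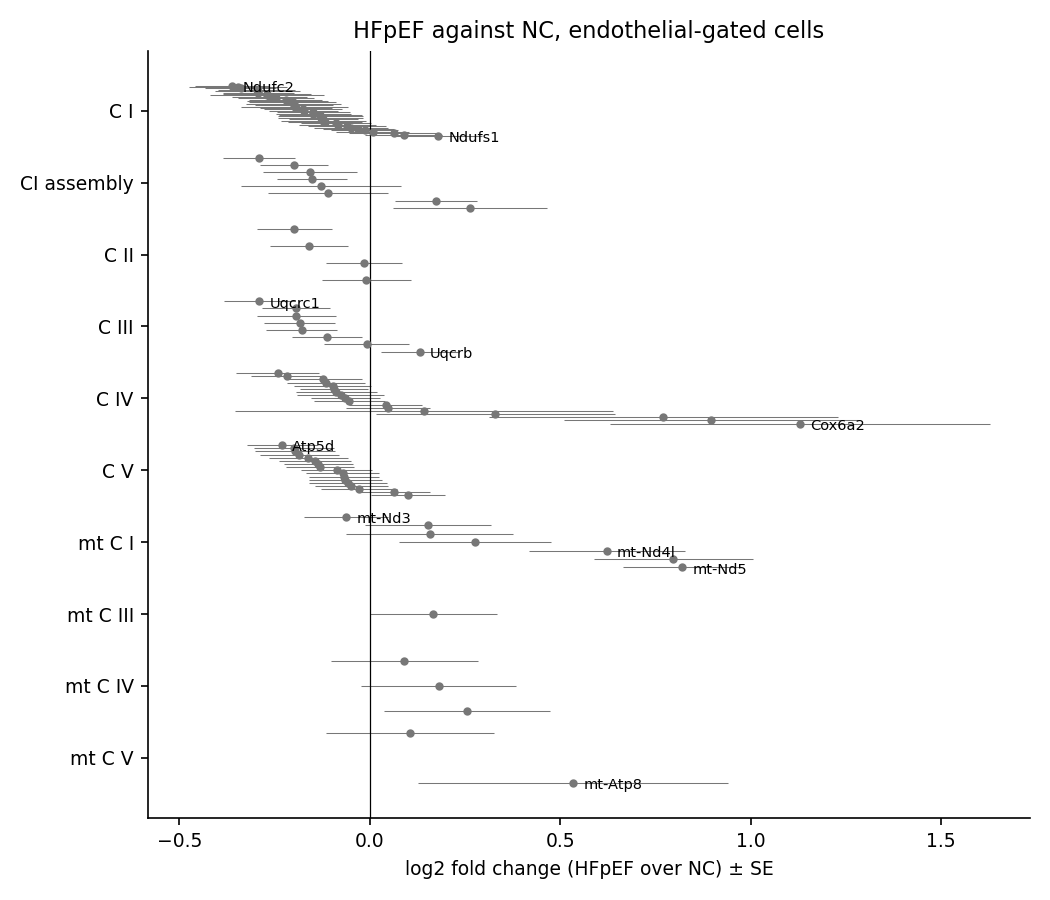
Log2 fold change of HFpEF over NC (x axis, log2 units, bars are standard errors of the fit) for each of the 104 members in ECs, in rows by complex (C I to C V) and genome (mt, mitochondrial DNA). Grey points mark members not called, which was all of them; most nuclear points lie left of 0, while mt-Nd5 (0.82), mt-Nd6 and mt-Nd4l lie farthest right among the mitochondrial genes.

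The mitochondrial set had a median above 0, which rested on HFpEF1. Its median log2 fold change was 0.18, with 12 of 13 members above 0 and mt-Nd3 (-0.06) below, and without HFpEF1 the median was -0.05. For 10 members the diets overlapped. HFpEF2 lay within or below the range of NC in each of these, and HFpEF1 was the highest library in each but mt-Nd3. For example mt-Co1, the catalytic subunit of complex IV, had a log2 fold change of 0.26 that became -0.02 without HFpEF1, and mt-Atp6, the proton channel subunit of complex V, went from 0.11 to -0.23. In both HFpEF libraries 3 of the 13 members, mt-Nd5, mt-Nd6 and mt-Nd4l, were above both NC libraries. Of all genes tested 25.0% lay above in this way, so the count itself does not set the mitochondrial set apart.

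mt-Nd5, a proton-pumping core subunit of complex I, stood at 552.9 and 627 CPM in NC and at 1184 and 900.4 CPM in HFpEF. Both HFpEF values were above both NC values, with a log2 fold change of 0.82 ± 0.15 (SE) and an adjusted p of 0.141 in edgeR. DESeq2 called it with an adjusted p of 1.3e-05. The log2 fold change was 0.61 without HFpEF1 and 0.75 after each cell was thinned to 1000 UMIs. Over the 17 settings run, this one included, it stayed at 0.61 or above, with an adjusted p under 0.05 in 2 of them.

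mt-Nd6, the only member on the other strand of mitochondrial DNA, had 17.6 and 27.5 CPM (NC) and 42.5 and 36.4 CPM (HFpEF) (log2 fold change 0.80 ± 0.21 SE, adjusted p = 0.174 in edgeR and 0.013 in DESeq2). mt-Nd4l had 216 and 332 CPM in NC, and in HFpEF 459 and 386 CPM (log2 fold change 0.62 ± 0.21 SE, adjusted p = 0.216 in edgeR and 0.03 in DESeq2). In both genes the diets did not overlap, and NC2 and HFpEF2 were the nearest libraries. Without HFpEF1 their log2 fold changes were 0.69 and 0.49. mt-Atp8 had 82.5 and 152 CPM in NC against 236 and 107 CPM in HFpEF, so that the diets overlapped (log2 fold change 0.53 ± 0.41 SE).

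Expressed as shares of the mitochondrial set itself, a measure that does not move with the total mitochondrial load of a library, mt-Nd5 again separated the diets. It made up 0.795% and 1.00% of the set's UMIs in NC and 1.37% and 1.44% in HFpEF, a ratio of means of 1.56. HFpEF1 and HFpEF2 were nearly equal on this scale. mt-Nd6 made up 0.0253% and 0.0441% in NC and 0.0492% and 0.0583% in HFpEF. Both genes had HFpEF above NC also among capillary, artery, vein and mural cells taken separately, from the same 4 libraries. In mural cells mt-Nd6 was at 0.0443% and 0.0388% in NC and at 0.106% and 0.0886% in HFpEF. The set held 6769, 18051, 7543 and 18057 UMIs there, so few UMIs of mt-Nd6 underlie these values. mt-Nd4l overlapped in all ECs, with 0.311% and 0.532% in NC and 0.531% and 0.618% in HFpEF, but had HFpEF above NC in capillary and artery cells. In the other direction mt-Co2, a core subunit of complex IV, made up 14.6% and 15.5% in NC and 14.3% and 14.1% in HFpEF. In all ECs it was the 1 member with HFpEF below NC on this scale, by a ratio of means of 0.942, but its diets overlapped in artery cells. Some members separated the diets in single types only. mt-Nd2 was lower in HFpEF in artery, vein and mural cells, mt-Co1 higher in vein and mt-Atp8 higher in mural cells. On the same strand, mt-Nd4l shares 7 bases with mt-Nd4 and mt-Atp8 shares 43 with mt-Atp6, so the division of UMIs within these pairs is uncertain. The division between mitochondrial DNA and its copies in the nuclear genome is uncertain too. mt-Nd5 and mt-Nd6 share 14 bases at their ends, but on opposite strands, and any effect of that overlap on their UMIs was not tested.

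**Figure D3:**
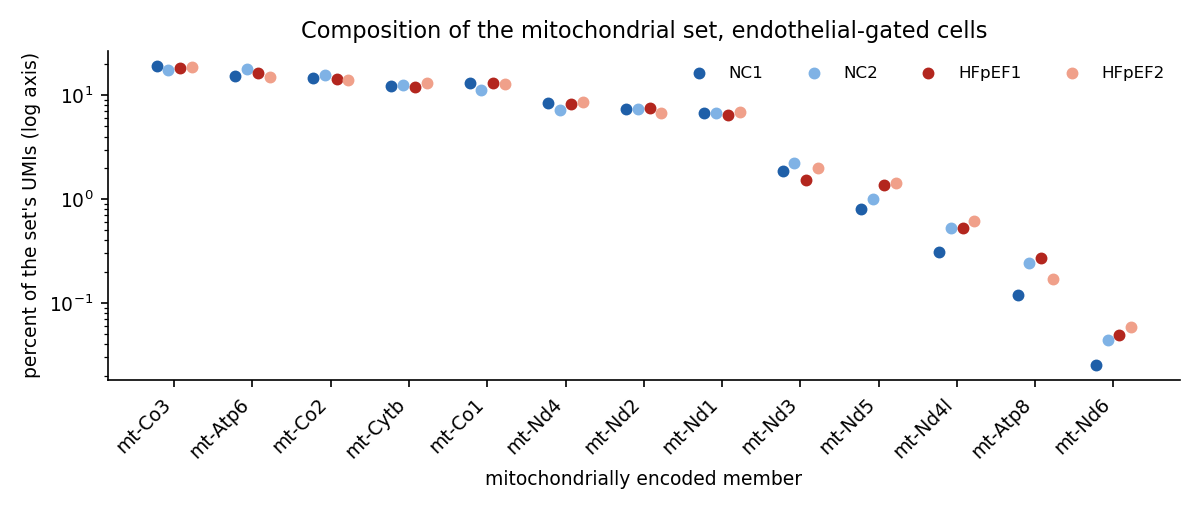
Share of each of the 13 mitochondrial genes in the UMIs of the mitochondrial set (percent, log axis) in ECs, with 1 point per library in the order NC1, NC2, HFpEF1, HFpEF2. The abundant genes lie close together in all libraries, while mt-Nd5 is at 0.795% and 1.00% in NC and at 1.37% and 1.44% in HFpEF.

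The muscle isoforms of complex IV were high in 1 library. Cox6a2, Cox7a1 and Cox8b replace Cox6a1, Cox7a2 and Cox8a in heart and skeletal muscle. Cox6a2 was at 10.7 and 6.35 CPM in NC and at 29.5 and 10.1 CPM in HFpEF. Cox7a1 was at 6.50 and 4.29 CPM in NC and at 14.5 and 6.68 CPM in HFpEF. Cox8b was at 7.04 and 3.65 CPM in NC and at 13.5 and 5.81 CPM in HFpEF. Each was highest in HFpEF1 and lowest in NC2, the same libraries in which the cardiomyocyte markers were highest and lowest. Their log2 fold changes were 1.13, 0.90 and 0.77, with adjusted p of 0.299, 0.294 and 0.419, and fell to 0.24, 0.31 and 0.12 without HFpEF1. With every cell that held a cardiomyocyte marker UMI left out they were 1.02, 0.56 and 0.78. The part of RNA from cardiomyocytes in these values was not tested further. The ubiquitous partners Cox6a1, Cox7a2 and Cox8a were between 286 and 555 CPM in all 4 libraries, with log2 fold changes of -0.10, 0.04 and -0.09.

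Other genes that serve the same organelle showed small differences as well, with 0 called by edgeR in each list. Of 76 mitochondrial ribosomal protein genes 61 were lower in HFpEF with a median of -0.13, and 21 (27.6%) had an unadjusted p under 0.05, against the 17.8% of all genes. Cytosolic ribosomal protein genes were lower in 62 of 81, with a median of -0.07 and 2 (2.47%) at an unadjusted p under 0.05. The medians of the other lists were -0.05 for the TCA cycle and pyruvate dehydrogenase, 0.02 for glycolysis, -0.02 for electron carriers and transporters, -0.07 for assembly factors outside the symbol rule and -0.03 for mitochondrial DNA expression and biogenesis. At an unadjusted p under 0.05 these held 3, 2, 3, 4 and 0 genes. Atpif1, the inhibitor that binds the ATP synthase when the proton gradient falls, had 113 and 127 CPM (NC) and 110 and 98.7 CPM (HFpEF) (log2 fold change -0.20, adjusted p = 0.376).

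The same diet comparison was made within each cell type. Types were gated on fixed marker genes, none of them a member, which gave 29764 capillary, 2910 artery, 1163 vein and 335 mural cells. As 2 groups of 2 libraries underlie each test, these comparisons share their mice and are not independent of that in all ECs. edgeR called 0 members in any type, but with the library number as a replicate block it called Cox6a2, mt-Nd5 and mt-Nd6 in capillary cells, and 1.97% of all genes there. Among capillary cells 0.0244% of 12306 genes were called without the block. There, 11 nuclear and 3 mitochondrial members had an unadjusted p under 0.05, as had 17.6% of all genes, and DESeq2 called mt-Nd5 and mt-Nd6 and 1.75% of genes. Among artery cells 0.172% of 10445 genes were called. There, 9 and 3 members had an unadjusted p under 0.05, as had 11.9% of all genes, and DESeq2 called mt-Nd5 and 0.153% of genes. Among vein cells 0.544% of 9373 genes and among mural cells 0.0316% of 3165 genes were called. At an unadjusted p under 0.05 were 7 and 2 members and then 2 and 0 members, against 11.3% and 5.34% of the genes tested, and DESeq2 called 0 members in both.

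Nuclear members were more often lower than higher in HFpEF in all 4 types. The medians were -0.13 in capillary cells (72 of 91 lower), -0.19 in artery cells (74 of 90), -0.22 in vein cells (73 of 87) and -0.12 in mural cells (58 of 82). Complex I was again lower in most of its genes, in 33 of 37 in artery cells and 34 of 37 in vein cells. The mural median was 0.07 without HFpEF1 and -0.42 without HFpEF2, so its direction rested on 1 library. The mitochondrial medians were 0.15, 0.07, 0.11 and 0.20 in the same order of types, and each was below 0 without HFpEF1. For mt-Nd5 the log2 fold changes were 0.80 in capillary, 0.62 in artery, 0.55 in vein and 0.54 in mural cells.

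The difference between the diet effects of 2 types was tested as an interaction with a term for each library. No member was called for artery, vein or mural cells against capillary cells, where 0.140%, 0.228% and 0.156% of genes were called. At an unadjusted p under 0.05 there were 5 nuclear and 0 mitochondrial members for artery, 2 and 1 for vein, and 1 and 0 for mural cells, against 5.67%, 5.33% and 3.85% of all genes, and no other tool was run. The median interaction of the nuclear set was -0.05, -0.09 and -0.02, and that of the mitochondrial set -0.07, -0.08 and -0.06.

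The second comparison asked how the machinery differed between vascular cell types inside a library, where each library serves as its own control. Members were called in each contrast between types, unlike between diets. The mitochondrial share was lower in artery and vein cells than in capillary cells in all 4 libraries. Capillary cells had 7.31% and 6.62% in NC and 8.82% and 6.55% in HFpEF. Artery cells had 6.01% and 5.59% in NC and 6.60% and 5.50% in HFpEF, or 0.748 to 0.843 times the capillary share. Vein cells had 5.20% and 4.85% in NC and 6.36% and 4.59% in HFpEF, or 0.701 to 0.732 times. In every library the order was capillary, artery, vein.

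The nuclear share hardly changed among the endothelial types and was much higher in mural cells. It was 1.55% to 1.78% in capillary, 1.48% to 1.71% in artery and 1.49% to 1.83% in vein cells, and artery cells were lower than capillary cells in 4 of 4 libraries. Mural cells had 2.92% and 3.11% in NC and 2.21% and 3.05% in HFpEF, with HFpEF1 the lowest, or 1.41 to 1.96 times the capillary share. Their mitochondrial share was 0.954 to 1.03 times the capillary one. Among these 4 types the ratio of mitochondrial to nuclear UMIs was highest in capillary cells, at 3.72 to 5.60, and lowest in mural cells, at 2.05 to 4.12, within each library. Of the smaller groups, lymphatic, endocardial, proliferating, fibroblast and myeloid cells had a mitochondrial share below the capillary one in 4 of 4 libraries. Lymphatic cells (90) had 2.49% to 4.69% and endocardial cells (49) had 3.12% to 6.24%. There were 94 proliferating, 96 fibroblast and 45 myeloid cells. The fewest cells in a library were 13 lymphatic, 3 endocardial, 5 proliferating, 7 fibroblast and 1 myeloid. T cells (36, with 2 to 24 per library) were above the capillary share in 1 of 4 libraries. B cells (52, with 9 to 32 per library) were above it in 1 of 3.

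Other measures moved with these shares. The cardiomyocyte markers were lower in artery cells, at 69.4 to 251 UMIs per 1000000, and vein cells, at 55.4 to 201, than in capillary cells, at 114 to 487, in every library. Median UMIs per cell were 2504 to 4905 in artery and 2700 to 5681.5 in vein cells against 1502.5 to 3884.5 in capillary cells. When every cell with a cardiomyocyte marker UMI was left out, the median log2 difference of the mitochondrial set was -0.43 for artery and -0.60 for vein cells. When each cell was thinned to 1000 UMIs before gating it was -0.53 and -0.75. The main comparisons gave -0.39 and -0.55. The thinned gates did not hold the same cells. In NC1, for example, they held 208 artery and 5669 capillary cells, against 723 and 4990 in the main gates. The part of cardiomyocyte RNA or of depth in these differences was not tested.

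**Figure D4:**
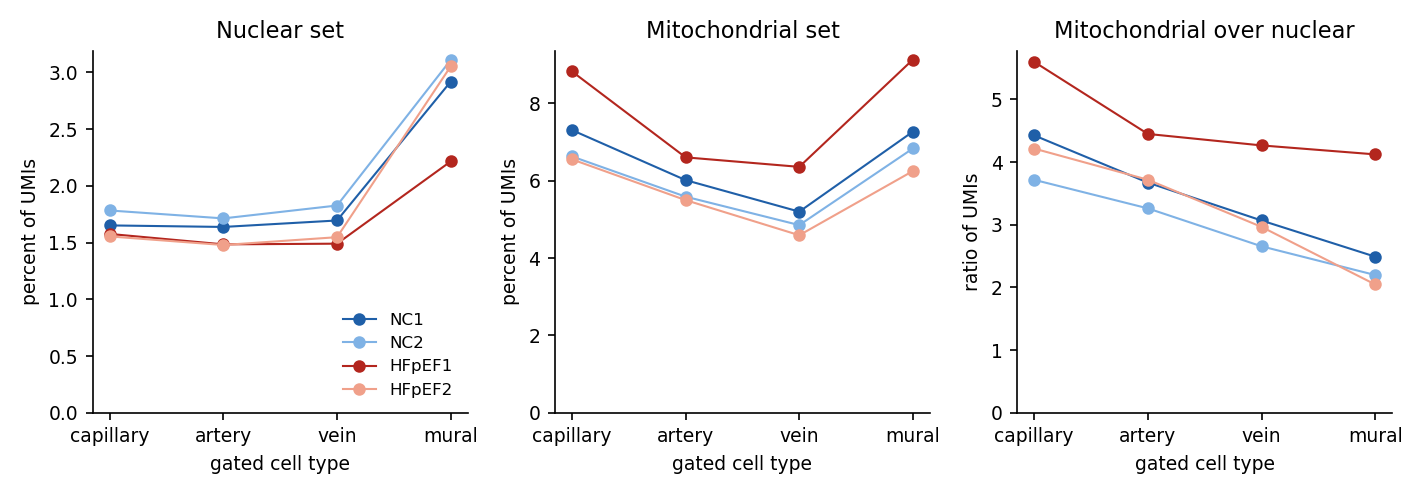
Share of UMIs in the nuclear set and in the mitochondrial set (percent) and the ratio of the 2 sets for 4 gated cell types, with 1 line per library that joins its own values. In each library the mitochondrial share falls from capillary to artery to vein cells, and the nuclear share is highest in mural cells, with 2.21% in HFpEF1 the lowest of these.

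Artery cells had lower levels than capillary cells of 27 nuclear members and of 12 of 13 mitochondrial members, in edgeR's quasi-likelihood test with a term for each library, adjusted by Benjamini-Hochberg over 10969 genes. Of all genes tested 15.9% were lower and 17.3% higher, and 1 nuclear member, Ndufa4l2, was higher. The nuclear median was -0.09 over 90 members tested, 74 of them below 0, against -0.01 for all genes. In complex IV 10 of 16 members fell and 1 rose, in complex I 11 of 37 fell, in complex V 3 of 17, in complex III 2 of 8, in complex II 0 of 4, and 1 of 8 assembly factors. Of the 28 nuclear calls, 11 missed the threshold with 1 library left out, 9 of them without NC2 and 6 without HFpEF2, while the 12 mitochondrial calls did not. After thinning 11 nuclear members were called, and Ndufb11 and Uqcrfs1, lower here, were at 0.09 and 0.03. The cytosolic ribosomal protein genes were lower over the same contrast in 77 of 79, with a median of -0.28.

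The 12 mitochondrial genes fell by amounts close to each other. The values ran from -0.27 for mt-Atp6 to -0.46 for mt-Nd2, and mt-Nd6, with the fewest UMIs, was at -0.13 and did not pass. mt-Co3, a core subunit of complex IV, measured 14467 and 11982 CPM (NC) and 17024 and 12494 CPM (HFpEF) in capillary cells. In artery cells it measured 10900.2 and 8890.3 CPM in NC against 11150 and 9690 CPM in HFpEF. It was lower in artery cells in each library (log2 fold change -0.45 ± 0.04 SE, adjusted p = 1.86e-08).

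Ndufa8 (ENSMUSG00000026895, chromosome 2, bases 36036326 to 36049406, minus strand, GRCm38), whose promoter is printed above, was the nuclear member with the firmest difference. Its level was 258 and 326 CPM (NC) and 239 and 210 CPM (HFpEF) in capillary cells. In artery cells it was 158 and 154 CPM in NC, and in HFpEF 115 and 138 CPM. All 4 artery values were below all 4 capillary values, with a log2 fold change of -0.83 ± 0.07 (SE), an adjusted p of 1.68e-08, and a range of -1.11 to -0.73 over the alternatives run. Other complex I genes that fell were Ndufa6 (log2 fold change -0.36), Ndufs8 (-0.35) and the assembly factor Ndufaf2 (-0.51).

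The muscle isoforms of complex IV were also lower in artery cells, where cardiomyocyte markers were lower too. Cox7a1 fell by 0.92, Cox8b by 0.88 and Cox6a2 by 0.67 on the log2 scale, from capillary means of 9.11, 8.47 and 15.6 CPM. Without cells holding a cardiomyocyte marker UMI, Cox7a1 had an adjusted p of 0.056 and Cox6a2 of 0.14, so that neither passed. Cox8b had an adjusted p of 0.056 without NC1. Ndufa4l2 was at 2.76 and 4.42 CPM (NC) and 7.45 and 3.41 CPM (HFpEF) in capillary cells, and at 7.75 and 11.6 CPM (NC) and 8.15 and 5.93 CPM (HFpEF) in artery cells (log2 fold change 1.10 ± 0.21 SE, adjusted p = 0.000318). It was higher in artery cells in 4 of 4 libraries. The summed mural markers were also higher there, at 254 to 472 UMIs per 1000000 against 123 to 203 in capillary cells, and their part in this value was not tested.

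Vein cells showed a larger fall of the mitochondrial genes than artery or mural cells, and few differences in the nuclear set. edgeR called 12 of 13 mitochondrial members lower, with a median of -0.55 and a range from -0.38 for mt-Atp6 to -0.68 for mt-Nd2 among those called. mt-Nd6 was at -0.01. Of 10827 genes tested, 10.5% were lower and 12.4% higher. In the nuclear set 8 of 90 members were lower and 2 higher, with a median of -0.04, which became 0.03 when libraries were scaled by their totals alone. The number of nuclear calls, 10 in all, was 2 after thinning, where 1058 genes were called. It was 5 in DESeq2, where 16.2% of all genes were called, and 21 without the low-count filter. mt-Co3 fell by 0.66 on the log2 scale (adjusted p = 1.12e-13), lower in vein cells in all 4 libraries.

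Ndufa8 was higher in vein cells, the reverse of its direction in artery cells. It measured 326 and 454 CPM (NC) and 286 and 267 CPM (HFpEF) in vein cells, above the capillary value of the same library each time. The log2 fold change was 0.37 ± 0.06 (SE), with an adjusted p of 2.08e-05, and 0.24 with an adjusted p of 0.43 after thinning. Cox6c, a small complex IV subunit, also rose, by 0.30. Those that fell were Atp5j (-0.35), Ndufc2 (-0.27), Ndufa3 (-0.23), Cox5a (-0.22), Atp5k (-0.19), Cox8a (-0.17) and the muscle isoforms Cox8b (-1.16) and Cox6a2 (-0.80). Of these, Cox8b rested on 1 to 10 UMIs per library in vein cells. With 1 library left out, Atp5k, Cox5a, Cox8a, Cox8b and Ndufa3 missed the threshold, each without at least 2 of the 4 libraries in turn (adjusted p of 0.058 to 0.27 in edgeR).

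Genes of glycolysis rose in vein cells more often than they fell, with 10 of 19 higher and 1 lower and a median of 0.19. Slc16a3, the lactate exporter MCT4, was higher by 1.85 on the log2 scale and Slc2a1, the main endothelial glucose transporter, by 1.05, while Ldhb, the lactate dehydrogenase chain typical of heart, fell by 0.74. Atpif1 was higher by 0.41 (adjusted p = 9.79e-05). In artery cells 2 glycolysis genes were higher and 3 lower of 19.

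Mural cells were the type in which the nuclear machinery stood highest. They passed the sort for RFP as 335 of 39829 cells, and were kept only with at most 3 of 10 endothelial markers, whose summed level was 628 to 1198 UMIs per 1000000 against 6619 to 9757 in artery and vein cells. The mural markers summed to 23138 to 32202. Cells with markers of both mural and endothelial type, 186 to 471 per library, were left out. The median over all 10695 genes tested was -0.14 in this contrast and 0.08 when libraries were scaled by their totals alone, a shift of 0.23 that applies to each value below.

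In edgeR, 48 of 90 nuclear members tested were higher in mural than in capillary cells and 5 were lower, against 14.7% higher and 19.3% lower among all genes. The nuclear median was 0.48, which is 0.63 above the median of all genes, and 0.66 above it without TMM. The rise covered every complex. In complex I 22 of 37 members rose and 2 fell, in complex V 11 of 17 rose and 1 fell, in complex III 5 of 8 rose, in complex II 2 of 4, in complex IV 6 of 16 rose and 2 fell, and 2 of 8 assembly factors rose. Of the 53 nuclear calls, 21 missed the threshold with 1 library left out, 17 of them without HFpEF2 and 13 without NC2. Without cells holding a cardiomyocyte marker UMI 31 members were called, and the median was 0.33. This kept 55311 of 93160 mural UMIs in NC1 and 97929 of 264239 in NC2. In HFpEF1 it kept 60749 of 82633, and in HFpEF2 129185 of 289024. For capillary cells it kept 12048318 of 19215350 and 13135663 of 19405214 UMIs in NC1 and NC2. In HFpEF1 and HFpEF2 it kept 4253394 of 8149224 and 23285288 of 32081331 capillary UMIs. The part of cardiomyocyte RNA in the mural rise was not tested.

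Among the largest rises were Sdhc, the membrane anchor of succinate dehydrogenase, and Cox8a. Sdhc had 58.0 and 52.2 CPM (NC) and 52.6 and 60.2 CPM (HFpEF) in capillary cells, and 136 and 188 CPM (NC) and 127 and 230 CPM (HFpEF) in mural cells (log2 fold change 1.68 ± 0.20 SE, adjusted p = 1.89e-16). Cox8a had 538 to 618 CPM in capillary cells of the 4 libraries, and 1194 and 1923 CPM (NC) and 1122 and 1763 CPM (HFpEF) in mural cells (log2 fold change 1.40 ± 0.15 SE, adjusted p = 1.47e-18). Both genes were higher in mural cells in every library, with HFpEF1 the lowest mural value in each. Ndufa5 (1.33), Ndufs7 (1.28), Atp5g3 (1.20) and Atp5b (1.06), the catalytic subunit of the ATP synthase, rose as well.

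A pair of paralogs of the complex IV subunit family went opposite ways. Ndufa4, first assigned to complex I and now counted as a subunit of complex IV, was at 398 and 490 CPM (NC) and 427 and 424 CPM (HFpEF) in capillary cells. In mural cells Ndufa4 fell to 54.3 and 95.8 CPM (NC) and 52.9 and 162 CPM (HFpEF), from 6, 26, 5 and 47 UMIs. The log2 fold change was -2.13 ± 0.21 (SE), with an adjusted p of 1.14e-22, and lay between -2.91 and -1.59 over the alternatives. All 4 mural values were below all capillary values.

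Ndufa4l2 (ENSMUSG00000040280, chromosome 10, bases 127514967 to 127517154, plus strand, GRCm38), a paralog known as a hypoxia-inducible gene and a pericyte marker, was at 2.96 and 4.75 CPM (NC) and 7.98 and 3.66 CPM (HFpEF) in capillary cells. In mural cells it stood at 1918 and 2107 CPM in NC against 1461 and 1684 CPM in HFpEF, from 212, 572, 138 and 490 UMIs. The mean was 370 times the capillary mean, with a log2 fold change of 8.65 ± 0.21 (SE), and at least 7.17 under each alternative.

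The other nuclear members that fell in mural cells were Ndufa8 (log2 fold change -1.20, adjusted p = 5.15e-08), Ndufc2 (-0.81), Cox7a2l (-0.53), which takes part in forming supercomplexes, and Atp5j (-0.46). Cox7a2l missed the threshold without NC1 (adjusted p = 0.086) and Atp5j without NC2 (adjusted p = 0.062). Ndufa8 measured 118 and 129 CPM (NC) and 95.3 and 127 CPM (HFpEF) in mural cells, below every capillary value. It was therefore lower in both artery and mural cells and higher in vein cells than in capillary cells. The muscle isoforms had few UMIs in mural cells, and none was called. Cox8b had 0, 0, 0 and 1 UMIs, Cox6a2 had 0, 2, 0 and 2, and Cox7a1 had 5, 3, 0 and 5. Cox7a1 was at 45.2 and 11.1 CPM in NC and at 0 and 17.2 CPM in HFpEF, above the capillary value in 3 of 4 libraries (log2 fold change 1.07 ± 0.52 SE, adjusted p = 0.105). Cox6a2 was below the capillary value in 4 of 4 libraries (log2 fold change -1.35 ± 0.69 SE, adjusted p = 0.122).

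The mitochondrial genes did not share the rise of the nuclear set. edgeR called 6 of 13 lower in mural cells (mt-Nd1, mt-Nd2, mt-Nd3, mt-Nd4, mt-Nd5 and mt-Co3), with a median of -0.34 that was 0.19 below the median of all genes. With libraries scaled by totals alone the median was -0.07 and 1 member, mt-Atp6, was called, as higher by 0.25 (adjusted p = 0.0221). After thinning 11 were called, with a median of -0.52, but the thinned gate did not hold the same cells. In NC1, NC2, HFpEF1 and HFpEF2 it held 101, 164, 100 and 247 mural cells, against 38, 82, 56 and 159 in the main gate. mt-Co3 missed the threshold without NC1, HFpEF1 or HFpEF2 in turn, mt-Nd1 without HFpEF1 and mt-Nd3 without NC1 (adjusted p of 0.051 to 0.14).

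**Figure D5:**
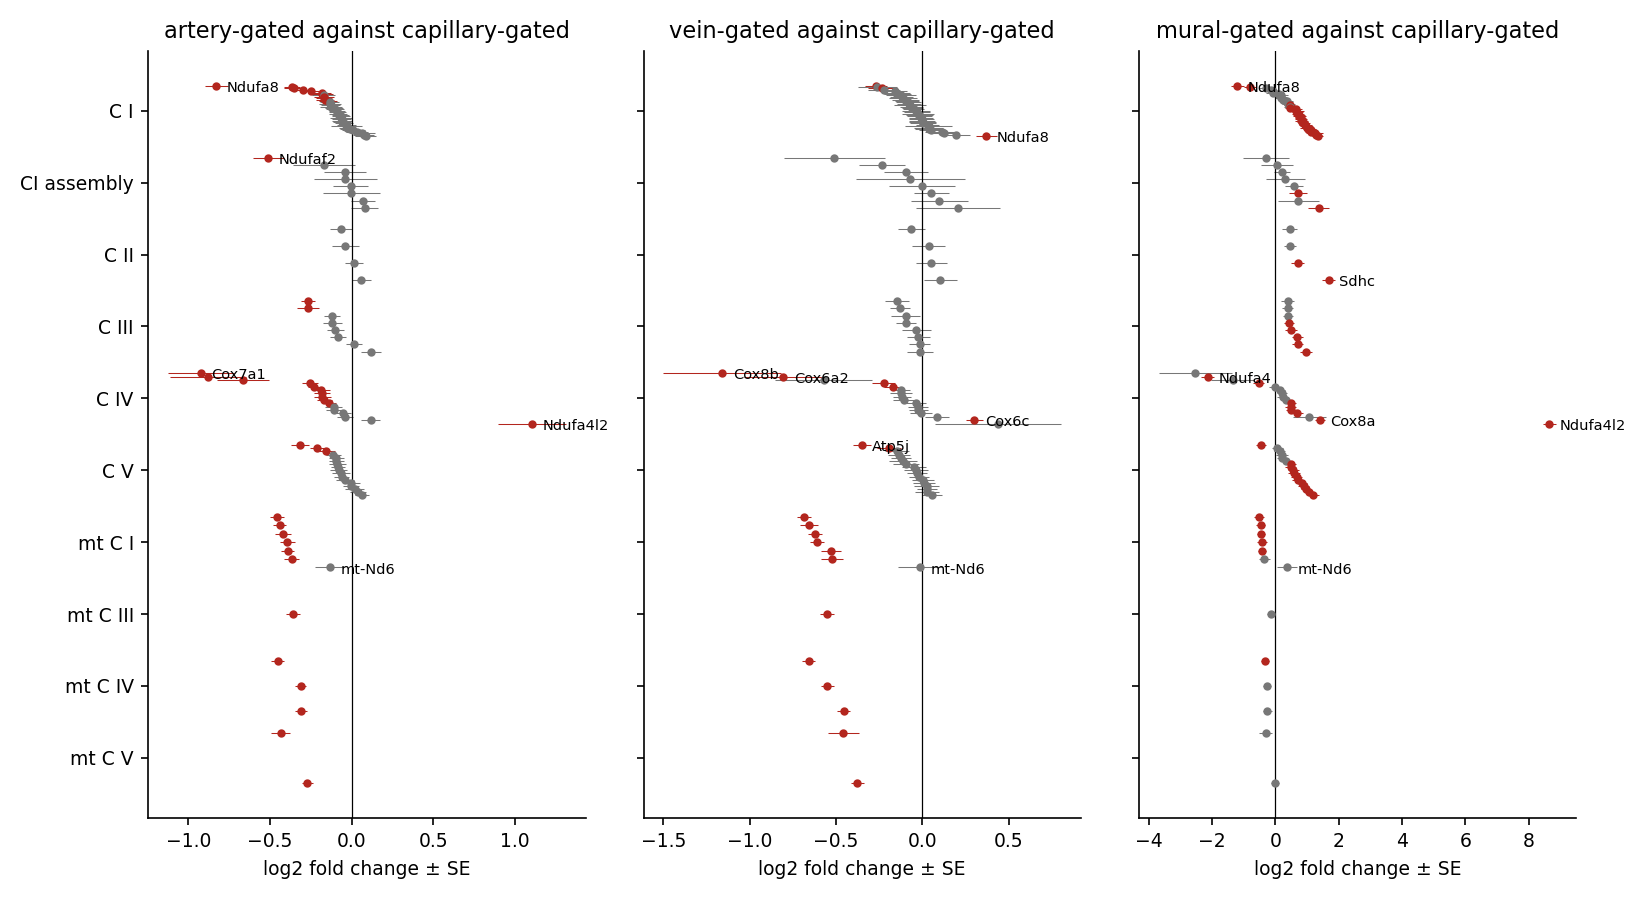
Log2 fold change against capillary cells (x axis, log2 units, bars are standard errors of the fit) of each member tested in artery, vein and mural cells, in rows by complex and genome, with red for members called at an adjusted p under 0.05 and grey for the rest. The mitochondrial genes lie left of 0 in artery and vein cells, and in mural cells 48 nuclear members lie right of 0 in red, with Ndufa4l2 at 8.65 and Ndufa4 at -2.13.

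Genes around the respiratory chain differed between mural and capillary cells by list. In the TCA cycle and pyruvate dehydrogenase list 11 of 25 genes were higher and 1 lower, among them Mdh1 (log2 fold change 2.12), Pdha1 (1.59) and Suclg1 (1.35). Of the electron carriers and transporters 11 of 21 were higher and 1 lower, with Coq7 of ubiquinone synthesis at 2.08, the outer membrane channel Vdac1 at 1.34 and the carrier Ucp2 at -3.12. Of 21 glycolysis genes 7 rose and 2 fell. Slc2a4, the insulin-responsive glucose transporter, was at 8.41 and Hk2 at 4.86, while Pfkfb3, which makes an activator of glycolysis, was at -2.38.

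Machinery for making the complexes differed less. Mitochondrial ribosomal protein genes rose in 8 of 76 and fell in 1, and assembly factors outside the symbol rule rose in 2 of 34 (Uqcc1 among them, 1.53) and fell in 2 (Bcs1l at -2.89 and Sco2 at -2.25). Among 19 genes of mitochondrial DNA expression and biogenesis, the coactivator Ppargc1b (6.87) and the nuclear receptor Esrra (1.41) rose, and Gabpb1 (-1.21) fell. Of these, Bcs1l, Gabpb1, Sco2 and Uqcc1 missed the threshold with 1 library or another left out (adjusted p of 0.054 to 0.18). Cytosolic ribosomal protein genes were lower in 68 of 79, with a median of -0.64. Atpif1 was higher in mural cells by 1.91 (adjusted p = 8.36e-27), in 4 of 4 libraries.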

How the data were processed

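The deposited values were raw UMI counts per gene and cell of 4 single-cell RNA-seq libraries, which the authors produced with fastp and Cell Ranger 5.0.1 on mm10 with Ensembl release 100. The authors describe filters of more than 200 genes and under 20% mitochondrial UMIs, the downsampling of reads between samples and, in their own table, the removal of mitochondrial genes. The deposited counts still held cells outside these filters and all mitochondrial genes, so the filters were applied again, with cells over 1% hemoglobin UMIs also left out. No doublet caller was run.

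ECs had UMIs of at least 2 of 10 endothelial markers and fewer than 3 mural, fibroblast, B cell, T cell or myeloid markers each. Cardiomyocyte, erythroid and platelet markers did not exclude a cell. Leaving out every cell with a cardiomyocyte marker UMI kept 4667 of 6760 ECs in NC1 and 4465 of 6142 in NC2. In HFpEF1 it kept 2992 of 5067, and in HFpEF2 15461 of 19480. Other types needed at least 3 of their own and at most 3 endothelial markers. Among ECs, artery cells had at least 3 of 7 artery markers, vein cells at least 2 of 5 vein markers, and capillary cells at least 3 of 7 capillary markers with at most 1 of the artery or vein lists. Counts were summed per library and type and tested with edgeR 4.0.16 in R 4.3.3 (quasi-likelihood test, TMM, filterByExpr, Benjamini-Hochberg adjustment over all genes tested, a call at an adjusted p under 0.05). Diet was the only term in HFpEF against NC, and types were compared with a term for each library. CPM values are counts per 1000000 UMIs after TMM within a fit, and a member's CPM differs slightly between fits. DESeq2 1.42.0, library totals without TMM, no low-count filter, thinning to 1000 UMIs, a stricter gate and leaving out each library were alternatives. Thinning came before gating, so a thinned type does not hold the same cells as the main one. Scripts ran in Python 3.11.15 (pandas 2.3.3, numpy 2.4.6, matplotlib 3.10.9). The tests were tried on simulated counts in which 200 genes were changed by 1 on the log2 scale. The diet test in ECs recovered 136 of them, and 24 of its 160 calls were false. The artery contrast recovered 178 (16 of 194 calls false) and the mural contrast 69 (1 of 70). The artery interaction recovered 105 (4 of 109). Smaller changes were not simulated.

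Genes were named by rule: all mitochondrial members, the 2 most abundant nuclear members of each complex, the 5 largest rises and falls by diet among nuclear members of at least 10 CPM without overlap, the members called with the 3 largest differences in each direction per type, muscle and ubiquitous isoform pairs, Atpif1, Cox7a2l and Ndufa4l2, and up to 3 called genes of each other list. Of the genes so named, 1 is not reported here. The members, lists and tests were chosen with earlier results of these data known. With 2 libraries per diet, no statement that they came from separate mice and no genotype in their labels, p-values measure only the spread between these libraries.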

Additional observations from a re-analysis of the deposited data

How the results depend on the processing

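No member's diet difference was called under the main settings. Of 432 alternatives to a count, share or median, 374 stayed close to the main value (a count within 1.5 times, another value within the spread between libraries). A count of calls has no direction and could not reverse, and equal counts, 0 against 0 included, were taken as close. The 8 alternatives that reversed the direction were all of a median or a share difference. In ECs, edgeR without the low-count filter called 1 nuclear and 3 mitochondrial members and 633 genes, and DESeq2 called 3 mitochondrial members and 275 genes. Gene counts were 51 after thinning, 17 without cells holding a cardiomyocyte marker UMI, 14 without cells of 10% or more mitochondrial UMIs, 1 without the gate, and 2 to 22 with a library left out. No filter gave 3 nuclear and 3 mitochondrial calls in capillary and 2 mitochondrial calls in artery cells. DESeq2 gave 2 and 1 mitochondrial calls, where 1.75% and 0.153% of all genes were called. Within single types, calls over all genes were not counted without the filter or with a library left out. The member counts under those settings therefore have no background to be read against. With a library left out, calls were 0 to 1 in each set in capillary cells and 0 to 1 mitochondrial in vein cells. The cardiomyocyte marker setting and the settings for diet within single types were added after the data were seen. The causes of these changes were not tested.

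The replicate numbers do not state a pairing, there are only 2 pairs, and deviations of libraries with the same number correlated at 0.0146 over 13055 genes. Scarb1 in capillary ECs was lower in NC2 and HFpEF2, at 49.9 and 52.8 UMIs per 1000000, than in NC1 and HFpEF1, both at 114. With the replicate block 42 genes and 0 members were called in ECs, and 1 nuclear and 2 mitochondrial members in capillary cells.

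With a library left out, the mitochondrial median by diet ran from -0.049 to 0.44 in ECs, -0.069 to 0.41 in capillary, -0.046 to 0.27 in artery, -0.14 to 0.31 in vein and -0.048 to 0.44 in mural cells, each lowest without HFpEF1 (as was the share difference, -0.317 to 1.87 percentage points). The nuclear median ran from -0.17 to -0.070 in capillary, -0.21 to -0.12 in artery, -0.23 to -0.18 in vein and -0.42 to 0.073 in mural cells. Thinning gave -0.12 in artery and -0.16 in vein cells. Without HFpEF1 the values of single genes by diet were -0.23 for mt-Atp6, -0.14 for mt-Atp8, -0.023 for mt-Co1, -0.18 for mt-Co2, -0.055 for mt-Co3, -0.010 for mt-Cytb, -0.049 for mt-Nd1, -0.20 for mt-Nd2 and -0.075 for Ndufa4l2. Over the libraries left out they reached 0.38, 1.04, 0.49, 0.31, 0.38, 0.32, 0.33, 0.44 and 0.76. The ranges of Cox6b2 (-0.38 to 0.93, and -0.15 without HFpEF2), Cox7a2 (-0.0091 to 0.088), Cox8a (-0.18 to 0.0037) and Ndufa4 (-0.20 to 0.052) also held 0. Without cells of 10% or more mitochondrial UMIs mt-Atp6 was at -0.0082, mt-Co2 at -0.052 and mt-Nd2 at -0.0018. Without the gate Cox6b2 was at -0.058 and Ndufa4l2 at -0.48, and thinned Ndufa4l2 was at -0.32.

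Between types, artery against capillary gave 11 nuclear members and 1520 genes when thinned, with a mitochondrial median of -0.53, and -0.50 with the stricter gate. The nuclear median was -0.023 without TMM. Thinned values reversed for Atpif1 (0.23), Ndufb11 (0.094) and Uqcrfs1 (0.026). For vein cells nuclear calls were 5 in DESeq2 (16.2% of all genes), 21 without the filter, 2 thinned (1058 genes) and 6 to 10 with a library left out. Their nuclear median was 0.027 without TMM and -0.14 thinned, the mitochondrial one -0.75 thinned and -0.69 with the stricter gate, and mt-Nd6 was at 0.053, 0.057 and -0.080 to 0.071 without TMM, thinned and with a library left out. For mural cells 31 nuclear members were called without cells holding a cardiomyocyte marker UMI, where Ndufb7 was at -0.037. Mitochondrial calls were 1 without TMM (median -0.072) and 11 thinned (median -0.52), and the median was -0.44 without the filter. mt-Atp6 was at 0.032 in DESeq2, 0.25 without TMM, 0.037 with the stricter gate and -0.068 to 0.039 with a library left out. Without TMM mt-Co1 was at 0.011, mt-Co2 at 0.015 and mt-Cytb at 0.14, and thinned mt-Nd6 was at -0.087. Of 40 artery, 22 vein and 59 mural members called, 18, 8 and 32 missed the threshold under at least 1 setting.

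Depth limited mural values, where Ndufa4 rested on 5 to 47 UMIs per library and Cox8b on 0 or 1.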
